A study of Mus musculus with 8 samples.

Results

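The genes described here encode the subunits of the mitochondrial oxidative phosphorylation machinery. Members were array probes with a RefSeq mRNA accession and a mouse symbol beginning with Ndufa, Ndufb, Ndufc, Ndufs or Ndufv (assembly factors of the Ndufaf series excluded), Uqcr, Cox4i, Cox5, Cox6, Cox7, Cox8 or Atp5, or naming 1 of the 4 Sdh subunits. For a gene with several probes, the brightest was used. The rule found 84 genes: 38 in complex I, 4 in complex II, 8 in complex III, 17 in complex IV and 17 in complex V. Of these, 80 passed the filter on dim probes and stood among 21528 genes tested. The 4 others, Ndufa4l2, Cox7b2, Cox8b and Cox8c, were not well above background on any array. All 80 were well above background on all 8 arrays, and none was saturated.

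The cells were J774.1, a mouse macrophage-like line from the BALB/c strain, and total RNA was hybridised with Cy3 on 8 Agilent arrays. There were 4 groups of 2 biological replicates. The first was control cells, and the others received isorhamnetin at 10 µM, tamarixetin at 10 µM or Torin1 at 1 µM for 6 h. Whether the control cells received a vehicle, and for how long, the sources used here do not say. The flavonols isorhamnetin and tamarixetin are isomeric methyl ethers of quercetin, with the methyl on neighbouring oxygens of the same ring. Torin1 is an inhibitor of the kinase mTOR, a regulator of growth and of mitochondrial gene expression.

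Oxidative phosphorylation takes place in the inner mitochondrial membrane. Complex I takes electrons from NADH and complex II takes them from succinate, and both pass them to ubiquinone. Complex III hands them on to cytochrome c, complex IV gives them to oxygen, and complex V, the ATP synthase, uses the proton gradient that complexes I, III and IV build. In macrophages the balance of this pathway against glycolysis shifts with activation. All members are nuclear genes, and the subunits encoded by mitochondrial DNA were not analysed here.

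Values are log2 signals minus the 75th percentile of the array, so they compare 1 probe across arrays and not different genes. A gene was called, and is said to have risen or fallen, at an adjusted p under 0.05 in limma with Benjamini-Hochberg adjustment over all 21528 genes. Replicate arrays correlated at 0.992 to 0.997 over all genes. The SD of the difference between replicates was 0.053 to 0.085 over the members and 0.263 to 0.439 over all genes. Between 41.4% and 52.1% of probes were well above background on an array. All arrays lay on 1 slide, with control and isorhamnetin in row 1 and tamarixetin and Torin1 in row 2. Slide row and treatment can therefore not be told apart when Torin1 or tamarixetin is set against control, or isorhamnetin against tamarixetin. Of 10 macrophage markers, 9 were well above background on all 8 arrays, the exception being Mrc1, and no fibroblast, epithelial or B cell marker was. Cd4 and Cd3e of the 6 T cell markers were well above background on all 8 arrays, with Cd3g and Cd8a on none. The summed level of the T cell markers was 2.40 and 2.52 in control and 1.71 and 1.85 with Torin1. That of the macrophage markers was 9.49 and 9.52 and then 9.56 and 9.53. These are sums of signals, so the brightest markers weigh most. Single macrophage markers moved both ways. The mean of Fcgr1 was 2.31 in control and 0.08 with Torin1, and that of Adgre1 1.40 and 2.84. The part of the markers in the results was not tested. In bulk RNA, fewer cells expressing a gene and less of its RNA per cell cannot be told apart.

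With Torin1, subunit genes of all 5 complexes fell against control, by 0.18 to 0.78 on the log2 scale. Of 80 members, 47 fell, 1 rose (Cox7a2l) and 32 were not called. Over all genes tested, 49.2% were called, 29.6% lower and 19.6% higher, so the 58.8% of members that fell stood against a large general response. The median log2 fold change of the members was -0.26, beside -0.09 over all genes, and 76 of 80 members had a value below 0, against 58.1% of all genes. The Torin1 arrays lay below both control arrays for 69 members, against 47% of all genes. Under quantile normalization the median kept its sign but came to -0.12 beside -0.066 over all genes. There 28 members were lower and 6 higher, against 28.4% and 21.9% of all genes, and 59 were below 0. With the median of each array as the scale, the median of the members was -0.45 beside -0.28. There 67 were lower and 0 higher, against 40.7% and 11.8% of all genes.

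The complexes did not stand far apart in their medians. Complex I had 25 of 37 genes called lower and a median of -0.28. Complex II had 2 of 4 and a median of -0.26, complex III 4 of 8 and -0.23, complex IV 4 of 14 and -0.21, and complex V 12 of 17 and -0.30. Complex IV thus had a share of called genes, 28.6%, near the 29.6% of all genes. Relative to the mean of the control arrays, the median over the 80 members was -0.26 and -0.29 on the Torin1 arrays. The control arrays themselves had -0.06 and 0.06, those of isorhamnetin -0.01 and -0.13, and those of tamarixetin -0.04 and -0.03. The Torin1 arrays were the lowest of the 8, and the second isorhamnetin array lay between them and the rest. For complex IV alone, that isorhamnetin array (-0.1682) was level with the first Torin1 array (-0.1685).

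**Figure D1:**
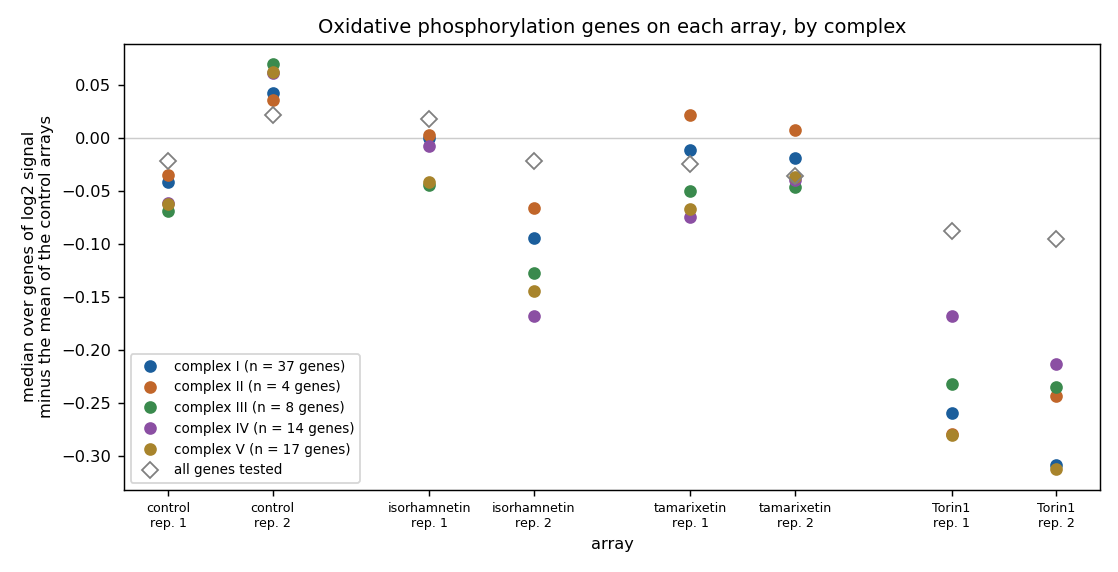
Median over the genes of each complex, and over all genes tested, of the log2 signal minus its mean on the control arrays (vertical axis), for each of the 8 arrays (horizontal axis). The 5 complexes lie between -0.17 and -0.31 on the Torin1 arrays, below the median of all genes there (-0.09 and -0.10), while for each complex the second isorhamnetin array is the lowest of the others; over all genes the second tamarixetin array is (-0.04).

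To show what lies before these genes, promoter windows of RefSeq (build GRCm38.p6) were read for the gene with the largest fall in each complex for which a window was given, for the 3 genes of the ATP synthase c subunit and for the gene that rose. Each window runs from 250 bases before the start of the gene to 50 after it, 5′ to 3′ along the gene, and all 8 genes lie on the minus strand. Capitals mark matches, on either strand, to letters bound by factors known for respiratory chain genes: the consensus of nuclear respiratory factor 1 (10 letters, with any base at 1 place in the middle), CCGGAAG (ETS family, which holds GABPA), AAGATGGC (YY1) and CACGTG (the E-box, bound by MYC and USF factors). The windows lie at chr7:122101799-122102098 (Ndufab1), chr9:50603800-50604099 (Sdhd), chr10:80406772-80407071 (Uqcr11), chr7:4753045-4753344 (Cox6b2), chr11:96075582-96075881 (Atp5g1), chr15:102670998-102671297 (Atp5g2), chr2:73911277-73911576 (Atp5g3) and chr17:83514284-83514583 (Cox7a2l).
Ndufab1: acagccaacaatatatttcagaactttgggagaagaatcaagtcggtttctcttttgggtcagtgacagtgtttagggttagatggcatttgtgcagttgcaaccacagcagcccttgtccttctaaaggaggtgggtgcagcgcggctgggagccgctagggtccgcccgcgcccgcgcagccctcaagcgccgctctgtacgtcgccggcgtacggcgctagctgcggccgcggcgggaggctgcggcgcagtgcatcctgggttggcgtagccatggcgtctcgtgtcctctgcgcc
Sdhd: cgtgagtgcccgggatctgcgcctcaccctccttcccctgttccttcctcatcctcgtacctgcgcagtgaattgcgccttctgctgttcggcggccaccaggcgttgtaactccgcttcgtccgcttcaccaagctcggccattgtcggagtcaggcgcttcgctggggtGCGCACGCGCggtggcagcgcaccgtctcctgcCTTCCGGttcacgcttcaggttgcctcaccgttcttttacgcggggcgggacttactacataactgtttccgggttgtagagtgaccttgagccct
Uqcr11: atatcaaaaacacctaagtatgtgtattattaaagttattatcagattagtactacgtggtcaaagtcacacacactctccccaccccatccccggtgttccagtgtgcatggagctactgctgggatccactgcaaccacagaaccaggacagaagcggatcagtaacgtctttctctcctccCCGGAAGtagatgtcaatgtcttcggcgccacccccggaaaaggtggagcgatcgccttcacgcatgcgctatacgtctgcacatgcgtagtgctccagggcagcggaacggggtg
Cox6b2: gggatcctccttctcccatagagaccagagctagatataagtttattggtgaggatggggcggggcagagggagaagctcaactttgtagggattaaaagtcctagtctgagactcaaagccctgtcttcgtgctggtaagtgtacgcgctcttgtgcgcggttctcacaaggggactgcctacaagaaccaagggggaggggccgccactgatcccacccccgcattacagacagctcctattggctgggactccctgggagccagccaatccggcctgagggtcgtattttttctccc
Atp5g1: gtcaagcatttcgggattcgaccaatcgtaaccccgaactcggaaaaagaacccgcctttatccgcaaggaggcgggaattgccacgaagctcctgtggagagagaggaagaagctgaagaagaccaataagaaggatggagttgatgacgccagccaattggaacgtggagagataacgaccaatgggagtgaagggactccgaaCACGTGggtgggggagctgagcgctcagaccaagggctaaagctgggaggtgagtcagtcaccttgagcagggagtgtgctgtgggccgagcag
Atp5g2: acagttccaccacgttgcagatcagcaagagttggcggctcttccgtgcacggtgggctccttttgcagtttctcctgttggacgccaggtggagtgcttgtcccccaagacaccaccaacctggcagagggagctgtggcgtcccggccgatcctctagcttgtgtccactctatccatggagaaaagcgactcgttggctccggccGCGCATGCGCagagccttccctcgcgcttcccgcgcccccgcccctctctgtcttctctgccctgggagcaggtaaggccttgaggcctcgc
Atp5g3: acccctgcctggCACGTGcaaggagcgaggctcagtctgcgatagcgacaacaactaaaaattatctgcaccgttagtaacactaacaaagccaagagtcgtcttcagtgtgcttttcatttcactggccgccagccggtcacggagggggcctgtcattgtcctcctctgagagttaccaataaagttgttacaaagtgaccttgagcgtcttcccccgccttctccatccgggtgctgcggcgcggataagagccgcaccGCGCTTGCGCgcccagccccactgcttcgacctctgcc
Cox7a2l: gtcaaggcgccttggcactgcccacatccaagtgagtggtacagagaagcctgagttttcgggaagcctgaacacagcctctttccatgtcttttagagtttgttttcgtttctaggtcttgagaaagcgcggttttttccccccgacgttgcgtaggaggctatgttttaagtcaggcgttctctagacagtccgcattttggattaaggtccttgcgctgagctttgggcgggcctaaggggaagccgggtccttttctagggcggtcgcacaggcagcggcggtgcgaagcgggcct

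Windows were given for 68 of the 84 members, and no 2 motifs overlapped in any of them. The nuclear respiratory factor 1 letters were in 16 of the 68 (23.5%), in 10.3% of the windows of genes tested and in 4.6% of all 32851 windows. Among members with a window they were in 13 of 41 that fell with Torin1 (31.7%) and in 3 of 24 that were not called (12.5%). The YY1 letters were in 13.2% of members, 4.76% of genes tested and 2.75% of all windows, and in 8 of the 41 that fell and 1 of the 24 not called. For the ETS letters the shares were 23.5%, 17.9% and 8.86%, and here the genes that fell had the smaller share, 19.5% against 33.3%. The E-box letters were in 8.82% of members, 10% of genes tested and 7.15% of all windows. Of the windows printed, Sdhd holds nuclear respiratory factor 1 and ETS letters, Uqcr11 ETS letters, Atp5g1 an E-box, Atp5g2 nuclear respiratory factor 1 letters and Atp5g3 both of these last kinds. Those of Ndufab1, Cox6b2 and Cox7a2l hold none of the 4. These matches are a description, and no factor binding was measured.

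In complex I the largest fall was that of Ndufab1, the mitochondrial acyl carrier protein, which also serves fatty acid and lipoic acid synthesis. It stood at 2.97 and 3.06 in control cells, at 3.15 and 3.06 after isorhamnetin, at 3.08 and 3.05 after tamarixetin, and at 2.25 and 2.22 after Torin1. Both Torin1 arrays lay far below the other 6, which overlapped. The log2 fold change with Torin1 was -0.78 ± 0.06 (SE, n = 2 and 2; limma adjusted p = 0.000431), a 1.72-fold lower level. Ndufa5, a subunit of the module that reduces ubiquinone, stood at 6.84 and 7.08 in control, at 6.90 and 6.78 after isorhamnetin, at 6.95 and 6.91 after tamarixetin, and at 6.44 and 6.38 after Torin1. Its fold change was -0.55 ± 0.10 (limma adjusted p = 0.00572). Ndufb10, of the membrane arm, stood at 6.76 and 6.80, 6.73 and 6.69, 6.77 and 6.80, and 6.26 and 6.21 in the same order of groups, a change of -0.55 ± 0.05 (limma adjusted p = 0.000765). For both genes, too, the Torin1 arrays were the lowest of the 8 and did not overlap the rest.

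The other complex I genes that fell had log2 fold changes from -0.47 (Ndufb7) to -0.18 (Ndufa7). They were Ndufa3, Ndufa6, Ndufa7, Ndufa8, Ndufa9, Ndufa11, Ndufa12, Ndufa13, Ndufb2, Ndufb4, Ndufb6, Ndufb7, Ndufb8, Ndufb9, Ndufb11, Ndufc1, Ndufc2, Ndufs4, Ndufs5, Ndufs6, Ndufv2 and Ndufv3. By symbol series, 10 of 14 Ndufa genes and 8 of 10 Ndufb genes fell, with medians of -0.29 and -0.37. By place in the enzyme, 5 of 8 genes of the NADH-oxidising module fell and 4 of 8 of the ubiquinone module. Over all genes tested, 29.6% were called lower. Ndufa9, which helps hold the peripheral arm to the membrane arm, changed by -0.33 ± 0.08 (limma adjusted p = 0.0211). Ndufa4, named for complex I but since assigned to complex IV, had a value of -0.16 ± 0.06 and missed the threshold (limma adjusted p = 0.0663). Among the accessory subunits, Ndufa1 (-0.01), Ndufa2 (-0.17), Ndufa10 (-0.12), Ndufb3 (-0.11) and Ndufb5 (-0.16) were not called either. Under quantile normalization Ndufa1 was called higher, at 0.19 (limma adjusted p = 0.027).

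Within complex I, the 7 nuclear genes of the catalytic core, which carry the flavin and the iron-sulfur clusters or line the electron path, can be set beside the other 30. Of the core, Ndufv2 alone fell (-0.38 ± 0.06, limma adjusted p = 0.00328), against 24 of the 30 others. These shares were 14.3% and 80%, beside 29.6% of all genes, and that of the core rests on 7 genes. The medians were -0.17 for the core and -0.31 for the others, and under quantile normalization the core's turned to 0.01 while that of the others was -0.15. Ndufs1, the largest iron-sulfur subunit of the NADH module, stood at 5.44 and 5.44 in control, at 5.44 and 5.40 after isorhamnetin, at 5.43 and 5.39 after tamarixetin, and at 5.39 and 5.45 after Torin1. The Torin1 arrays spanned the control arrays, while both arrays of each flavonol lay below control by less than 0.05. Its fold change of -0.02 with Torin1 had a 95% interval of -0.15 to 0.11. Ndufv1, which holds the flavin, stood at 5.83 and 5.95 in control, at 6.08 and 5.90 after isorhamnetin, at 5.98 and 6.11 after tamarixetin, and at 6.08 and 6.01 after Torin1. Its value was 0.15 with an interval of -0.08 to 0.38, and a second, dimmer probe gave -0.17, so the probes disagreed in sign. Ndufs7 was at -0.22 ± 0.07 (limma adjusted p = 0.0536), Ndufs3 at -0.17 and Ndufs8 at 0.10, none of them called. Under quantile normalization Ndufs1 (0.17), Ndufs8 (0.29) and Ndufv1 (0.34) were called higher.

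A difference of medians within an array does not depend on a shift of the whole array. Relative to control, the median of the 30 other complex I genes minus that of the core was -0.17 and -0.19 on the Torin1 arrays. The control arrays had -0.01 and 0.01, those of isorhamnetin -3e-04 and -0.05, and those of tamarixetin -0.01 and -0.01. The Torin1 arrays did not overlap the other 6. This contrast was not tested.

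**Figure D2:**
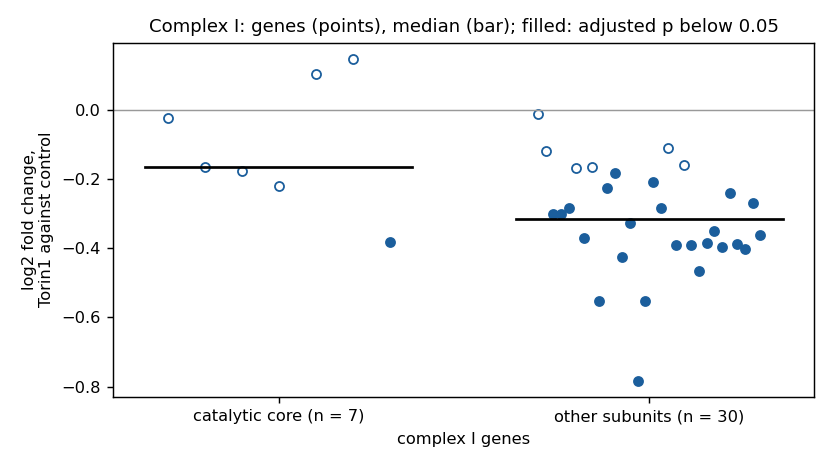
Log2 fold change with Torin1 against control (vertical axis) of the 7 catalytic core genes and the 30 other genes of complex I (horizontal axis). Points are genes, filled where called, and bars are the medians of -0.17 and -0.31; in the core 1 gene is filled, in the other group 24.

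Complex II, succinate dehydrogenase, is also an enzyme of the tricarboxylic acid cycle, and its 4 genes did not move alike. Sdhd, a membrane anchor, stood at 7.13 and 7.18 in control, at 7.06 and 7.02 after isorhamnetin, at 7.12 and 7.15 after tamarixetin, and at 6.62 and 6.62 after Torin1. It fell by 0.53 ± 0.05 on the log2 scale with Torin1 (limma adjusted p = 0.000741), with no overlap. Sdhc, the other anchor, stood at 4.43 and 4.32, 4.34 and 4.31, 4.26 and 4.20, and 3.95 and 4.09 in the same order of groups. Its change was -0.36 ± 0.07 (limma adjusted p = 0.011). By their brightest probes the anchors thus fell and the catalytic subunits were not called. Sdhb, the iron-sulfur subunit, was at -0.17 (95% interval -0.41 to 0.07), and a dimmer probe gave -0.24. With the mean of its probes Sdhb was called lower, at -0.21 (limma adjusted p = 0.049). It was also called with the median of each array, at -0.36 (limma adjusted p = 0.0423). Sdha, the flavoprotein, was at 0.05 (-0.10 to 0.21) by its brightest probe and at -0.16 by another, and under quantile normalization it was called higher, at 0.23.

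In complex III, small subunits gave the largest falls. Uqcr11 stood at 7.01 and 7.15 in control, at 7.04 and 6.90 after isorhamnetin, at 7.01 and 7.01 after tamarixetin, and at 6.60 and 6.59 after Torin1, a change of -0.49 ± 0.07 (limma adjusted p = 0.00371). Uqcrb, which takes part in ubiquinone binding, stood at 6.88 and 7.01, 6.86 and 6.82, 6.95 and 6.91, and 6.50 and 6.45, a change of -0.47 ± 0.06 (limma adjusted p = 0.00245). Uqcrq also fell (-0.33 ± 0.10, limma adjusted p = 0.0432), as did the core protein Uqcrc1 (-0.25 ± 0.07, limma adjusted p = 0.0282). All 8 genes of the complex had both Torin1 arrays below both control arrays, as had 47% of all genes. The iron-sulfur protein Uqcrfs1 was at -0.10 (95% interval -0.28 to 0.08), Uqcrc2 at -0.09, Uqcrh at -0.18 and Uqcr10 at -0.21, and none was called.

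Complex IV held a fall as large as any other and the sole rise. Cox6a2 is the form of subunit 6a known from heart and skeletal muscle. It stood at 0.83 and 0.90 in control, at 1.07 and 1.13 after isorhamnetin, at 0.83 and 0.87 after tamarixetin, and at 0.12 and 0.04 after Torin1. The Torin1 arrays were the lowest and the isorhamnetin arrays the highest of the 8. With Torin1 it fell by 0.78 ± 0.06 on the log2 scale (limma adjusted p = 0.00039), a 1.72-fold lower level. Of 6 skeletal muscle and heart markers, Tnnt2 was well above background on all 8 arrays, and Myh6, Ckm and Mb on none. The summed level of the 6 was 2.44 and 2.52 in control and 2.15 and 2.15 with Torin1, and its part in the result was not tested. Cox6a1, the widely expressed form, was at -0.18 with Torin1 (95% interval -0.39 to 0.04) and not called.

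Cox7a2l, also known as SCAFI, is a homologue of subunit 7a that joins complexes III and IV into supercomplexes. It stood at 6.83 and 6.94 in control, at 6.85 and 6.85 after isorhamnetin, at 6.81 and 6.79 after tamarixetin, and at 7.18 and 7.21 after Torin1. Its Torin1 arrays were the highest of the 8, and it rose by 0.31 ± 0.06 (limma adjusted p = 0.00751). With the median of each array as the scale the value was 0.12 and was not called (limma adjusted p = 0.359). Cox7a2, the widely expressed form of subunit 7a, was at -0.18 (95% interval -0.39 to 0.03), and Cox7a1, its heart and muscle form, was at -0.36 ± 0.12 and missed the threshold (limma adjusted p = 0.0552). Cox6b2, a form of subunit 6b known from testis, fell by 0.46 ± 0.09 (limma adjusted p = 0.00824), while Cox6b1 was at -0.23 and not called. Cox6b2 was dim, with unscaled signals of 85.7 and 86.2 in control and 66.4 and 65.8 with Torin1. Its value was -0.31 with another background correction (normexp) and -0.66 under quantile normalization. Cox7c (-0.30) and Cox8a (-0.26) fell.

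The remaining complex IV genes were not called. Cox4i1, the main form of the regulatory subunit 4, stood at 7.70 and 7.83 in control, at 7.82 and 7.62 after isorhamnetin, at 7.74 and 7.75 after tamarixetin, and at 7.72 and 7.72 after Torin1. The Torin1 arrays lay within the range of the control arrays and just below both tamarixetin arrays. The fold change of -0.04 with Torin1 had a 95% interval of -0.25 to 0.17. Its form Cox4i2, known from lung and hypoxia, was at -0.13, Cox5a, which sits beside subunit 4, at -0.25, Cox6c at -0.04 and Cox7b at -0.16. Cox5b was not analysed here.

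**Figure D3:**
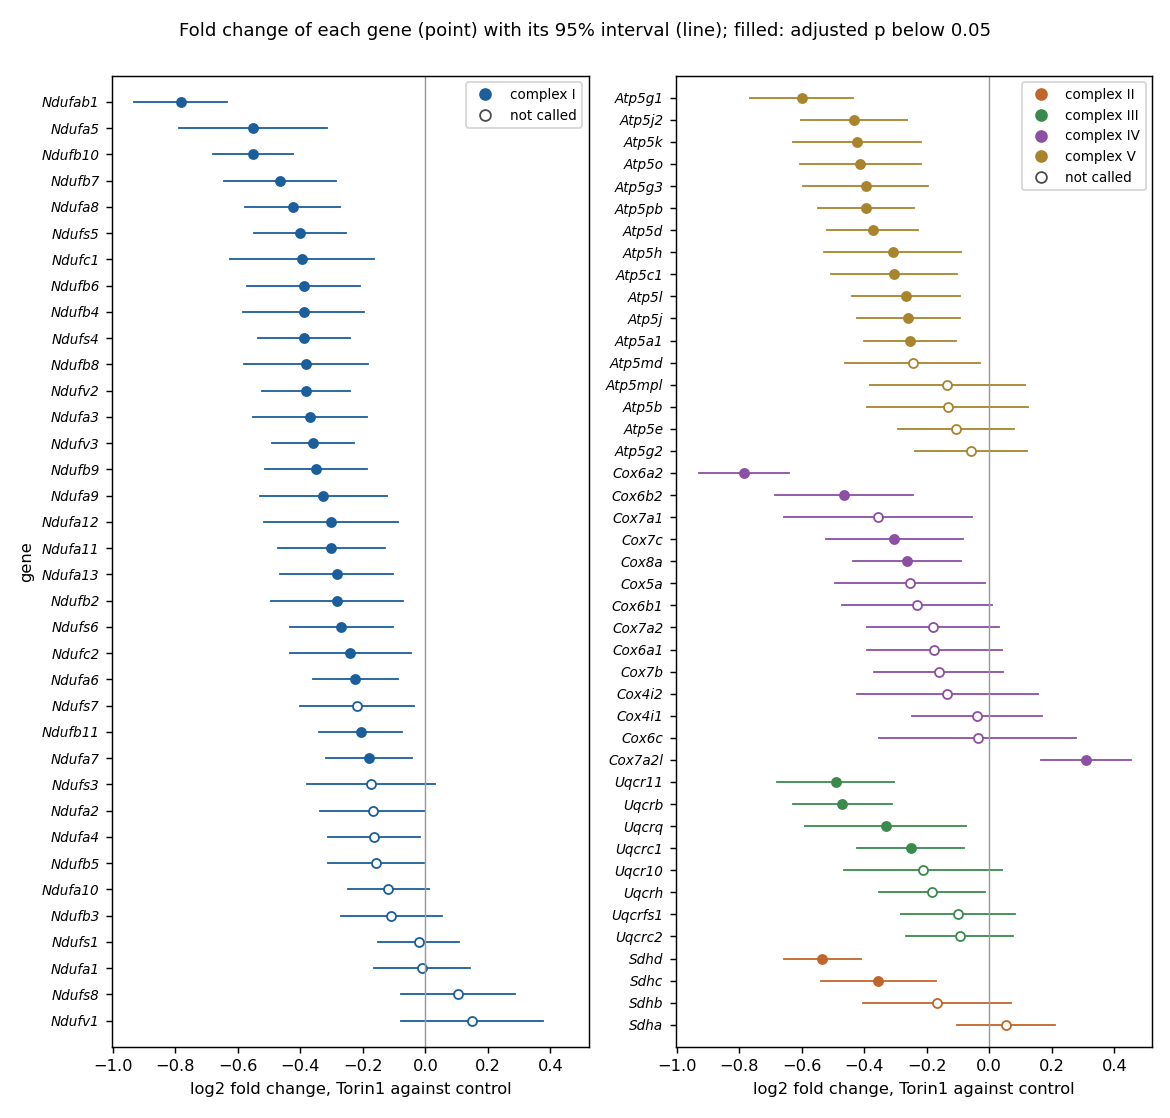
Log2 fold change of the genes reported by name with Torin1 against control (horizontal axis), with its 95% interval from limma, coloured by complex and sorted within it (vertical axis); filled points are called. Filled points lie left of 0 except Cox7a2l at 0.31, and Cox6a2 and Ndufab1 lie farthest left, both at -0.78.

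Complex V had the lowest median, and none of its 17 genes had a value above 0. Atp5g1, 1 of the 3 genes that encode the same mature c subunit of the rotor ring, stood at 7.76 and 7.86 in control, at 7.72 and 7.60 after isorhamnetin, at 7.71 and 7.71 after tamarixetin, and at 7.21 and 7.22 after Torin1. It fell by 0.60 ± 0.07 (limma adjusted p = 0.00125), and its Torin1 arrays did not overlap the others. Atp5g3 stood at 8.28 and 8.44, 8.33 and 8.21, 8.21 and 8.32, and 7.98 and 7.95, a change of -0.40 ± 0.08 (limma adjusted p = 0.0102). Atp5g2 stood at 7.95 and 8.06 in control, at 7.996 and 7.88 after isorhamnetin, at 8.01 and 7.98 after tamarixetin, and at 7.98 and 7.91 after Torin1. Its groups overlapped, and the value of -0.06 had a 95% interval of -0.24 to 0.12 that does not meet that of Atp5g1, -0.76 to -0.44. The difference between the c subunit genes was not tested.

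**Figure D4:**
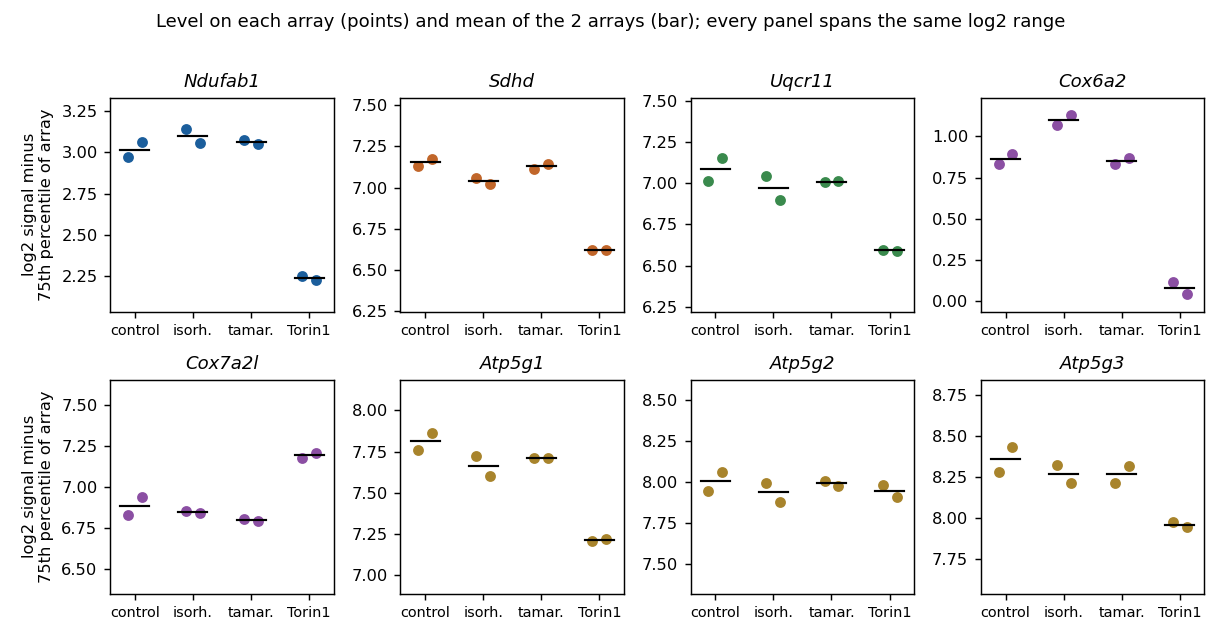
Log2 signal minus the 75th percentile of the array (vertical axes, all spanning the same range) on each array (points) with group means (bars), for the 4 groups (horizontal axes; isorh., isorhamnetin; tamar., tamarixetin). Torin1 is lowest for Ndufab1, Sdhd, Uqcr11, Cox6a2, Atp5g1 and Atp5g3, highest for Cox7a2l, and overlaps control for Atp5g2.

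Next in size were Atp5j2 (-0.43 ± 0.07, limma adjusted p = 0.00414) and Atp5k (-0.42 ± 0.08, limma adjusted p = 0.00858), small subunits of the membrane part. Atp5j2 stood at 6.65 and 6.78 in control and 6.30 and 6.26 with Torin1, and Atp5k at 6.89 and 7.05 and at 6.59 and 6.50. Atp5o and Atp5pb, both of the stalk that holds the catalytic head still, fell by 0.41 and 0.39, and Atp5h, Atp5j and Atp5l fell by 0.31, 0.26 and 0.27. In the F1 part, which includes the catalytic head, 3 of 5 genes fell, beside 29.6% of all genes. They were Atp5a1 (-0.25), Atp5c1 (-0.30) and Atp5d (-0.37). Atp5b, the catalytic beta subunit, stood at 8.52 and 8.65 in control and 8.45 and 8.45 with Torin1, a value of -0.13 with a 95% interval of -0.39 to 0.12. Atp5e was at -0.11, Atp5md at -0.25 and Atp5mpl at -0.13, and none was called.

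Calls near the threshold depended on single arrays. Where a control or Torin1 array was left out, fewer of all genes were called lower too. The count of members called lower was 24 without control replicate 2, 28 without Torin1 replicate 1 and 23 without Torin1 replicate 2, against 47 with all arrays, and it was 21 with no filter on dim probes. Without another of the arrays it was 40 to 47. Of the 47, 21 fell in every alternative that measured them: Atp5d, Atp5g1, Atp5j2, Atp5k, Atp5o, Atp5pb, Cox6a2, Cox6b2, Ndufa5, Ndufa8, Ndufab1, Ndufb6, Ndufb7, Ndufb10, Ndufs4, Ndufs5, Ndufv2, Ndufv3, Sdhd, Uqcr11 and Uqcrb. Other probes were present for 17 of the 80 genes, 19 in all, and 17 of these had the sign of the brightest probe, the exceptions being those of Ndufv1 and Sdha.

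Torin1 was also set against tamarixetin, whose arrays lay in the same slide row, although the doses differed and the treated cells differed in compound. Of 80 members 36 were called lower and 1 higher, against 24.9% and 18.7% of all genes, or 43.6% in either direction. The median was -0.23 beside -0.04 over all genes. Values were below 0 for 76 members, against 53.8% of all genes, and 67 had both Torin1 arrays below both tamarixetin arrays, against 39.4% of all genes. Of the 47 genes lower against control, 34 were lower here too, and 2 others, Cox7a1 (-0.41) and Ndufa10 (-0.17), were called here and not against control. These comparisons share the Torin1 arrays, so they are not independent. Ndufab1 (-0.83), Cox6a2 (-0.77), Sdhd (-0.51), Atp5g1 (-0.50) and Uqcrb (-0.45) were the lowest of their complexes, and Cox7a2l was higher by 0.39. The median of the members was -0.26 without Torin1 replicate 1 and -0.18 without Torin1 replicate 2, beside -0.04 over all genes each time. Fewer of all genes were called lower in these fits too, so the 24.9% is no baseline for the count of members called lower there. The count was 22 without Torin1 replicate 1 and 17 without Torin1 replicate 2.

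With isorhamnetin no member was called by limma, while 0.553% of all genes were, 0.125% lower and 0.427% higher. At an unadjusted p under 0.05, 1 member was lower (Ndufa6) and 1 higher (Cox6a2), against 5.97% and 9.43% of all genes. The median of the members was -0.06, beside -0.003 over all genes, and 68 of 80 values were below 0, against 50.7% of all genes. This small shift was uneven between the replicates: the median of members minus that of all genes, relative to control, was -0.03 on the first array and -0.11 on the second, and -0.04 and 0.04 on the control arrays. Under quantile normalization the median was -0.01 and 43 values were below 0, and with the median of each array it was -0.12 and 77 were below 0. It was -0.01 without the second control or the second isorhamnetin array, -0.12 without the first control array and -0.13 without the first isorhamnetin array. The medians by complex ran from -0.01 in complex II to -0.09 in complex V. Cox6a2 had the largest value, 0.23 ± 0.06 (limma adjusted p = 0.16), with both isorhamnetin arrays above both control arrays. Largest in the other complexes were Ndufa6 (-0.14), Sdhd (-0.11), Uqcrh (-0.16) and Atp5g1 (-0.15), none called.

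With tamarixetin, too, limma called no member, against 0.079% of all genes (0.00929% lower, 0.0697% higher), and at an unadjusted p under 0.05 there was none in either direction, against 8.54% of all genes lower and 4.91% higher. The median was -0.03, the same as over all genes, and 61 of 80 values were below 0, against 58.9% of all genes. The sign of this median was not stable: it was 0.02, with 33 values below 0, under quantile normalization, and 0.02, with 35 below 0, without the second control array. Values ran from -0.22 (Cox6b2, limma adjusted p = 0.379) to 0.15 (Ndufv1, limma adjusted p = 0.525). In the other complexes the largest were Sdha (0.15), Uqcrq (-0.09) and Atp5g1 (-0.10). Cox6a2, at -0.01, and Cox7a2l, at -0.08, were not called.

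**Figure D5:**
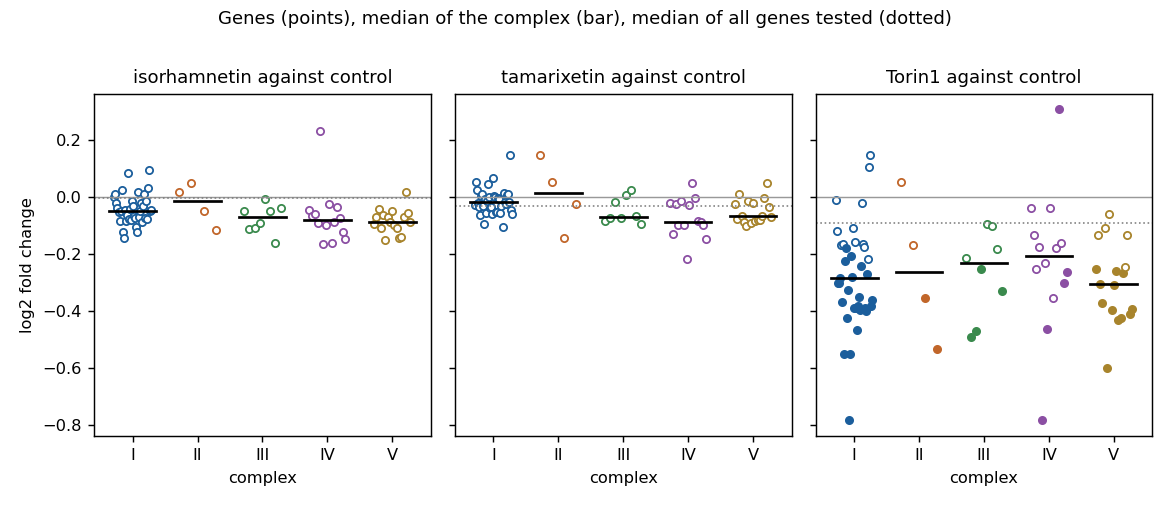
Log2 fold change against control (vertical axis) of the genes of complexes I to V (horizontal axis) for isorhamnetin, tamarixetin and Torin1, which share the control arrays. Points are genes, filled where called, solid bars are complex medians and the dotted line is the median of all genes (-0.003, -0.03 and -0.09); filled points appear with Torin1 alone.

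The isomers were compared directly, as 1 pair at the same dose and time. No member was called by limma, against 0.785% of all genes, and at an unadjusted p under 0.05 there was 1 member, Cox6a2, against 3.46% of all genes lower and 9.21% higher. Cox6a2 was higher with isorhamnetin by 0.25 (95% interval 0.10 to 0.39, limma adjusted p = 0.182), and the 2 arrays of each isomer did not overlap, as for 27.3% of all genes in this direction. Over the members the difference ran from -0.21 (Cox7a1) to 0.25, with a median of -0.03 beside 0.03 over all genes. A single array set the sign of that median: it was 0.025 without the second isorhamnetin array and -0.08 without the first, and with the median of each array it was -0.004. The 95% interval of a member's difference, not adjusted for the number of genes, reached 0.18 to either side at the median. Over all genes the smallest difference called was 0.36, so small differences between the isomers could not be seen. Largest in the other complexes were Ndufb4 (-0.10), Sdha (-0.13), Uqcrh (-0.09) and Atp5l (-0.07).

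Other genes of mitochondrial biogenesis were counted for Torin1 against control, for which 29.6% of all genes were called lower and 19.6% higher. Of 78 mitochondrial ribosomal protein genes, which make the translation machinery for the mitochondrially encoded subunits, 53 fell and 0 rose (median -0.32). The largest were Mrps34 (-0.79), Mrpl18 (-0.77) and Mrps7 (-0.76). Of 29 import genes, 18 fell and 0 rose (median -0.31), led by Timm9 (-0.70), Timm22 (-0.68) and Timm50 (-0.60), parts of the inner membrane import machinery. Of 52 assembly factors of the 5 complexes, 26 fell and 4 rose (median -0.24). Cox19 (-0.82) and Cmc2 (-0.80), which serve complex IV assembly, and Uqcc2 (-0.69), of complex III assembly, were first among them.

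The remaining lists hold metabolic and regulatory genes, and their counts too stand beside 29.6% of all genes called lower and 19.6% higher. Of 25 other chain components, 15 fell and 1 rose (median -0.23), among them Higd1a (-0.87), a hypoxia-induced partner of complex IV, and Ucp2 (-0.71), a carrier of the uncoupling protein family. Coq8a, a kinase-like protein of ubiquinone synthesis, was well above background on both Torin1 arrays and not on the control arrays. It passed the filter through the Torin1 arrays alone, so its call as risen carries no weight of its own. Its means were -1.76 and -5.33, and Torin1 was at least 4.47-fold higher. That bound sets the Torin1 mean against the dimmest signal counted as above background on each control array, or the probe's own where higher. Of 25 tricarboxylic acid cycle and pyruvate dehydrogenase genes, 9 fell and 1 rose (median -0.15), a median that turned to 0.04 under quantile normalization. Pdk1 (-0.83), a kinase that inhibits pyruvate dehydrogenase, and Mpc2 (-0.59), of the pyruvate carrier, fell, and Pdp1 (0.72), a phosphatase that activates the enzyme, rose. Of 26 regulators of mitochondrial gene expression, 10 fell and 3 rose (median -0.12), with Nrf1 (-0.52), the gene of nuclear respiratory factor 1, Slirp (-0.44), a binder of mitochondrial mRNA, and Tufm (-0.43), a mitochondrial elongation factor, among those that fell. Under quantile normalization 37 ribosomal, 12 import and 18 assembly genes were lower and 8, 2 and 6 higher, and the regulators' median was -0.01. Over all genes 28.4% were lower there and 21.9% higher. With this scaling the tricarboxylic acid cycle list had 5 genes lower and 5 higher, and the regulators 6 lower and 8 higher. The balance of calls thus became even for the former and turned for the latter. No gene of these lists was called with either flavonol or between them on the 75th percentile scale. Under quantile normalization 1 assembly factor and 1 other chain component were higher with isorhamnetin than with tamarixetin.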

How the data were processed

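Per the file headers, the arrays were read with Agilent Feature Extraction 10.7.1.1 and the deposited processed signal is an intensity after background subtraction, unscaled between arrays. The log2 values that the authors deposited equalled log2 signal minus the 75th percentile of the array and the probe's median within 0.01 for 99.8% of 56605 probes. The main values were log2 of the processed signal minus each array's 75th percentile. Outlier spots were dropped (323 probes), spots of a probe were averaged, and a probe was kept if both arrays of some group had it well above background (27562). Symbols were matched by RefSeq accession (32994 probes). The array header names mm9, so coordinates are given for the promoter windows alone.

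Tests were two-sided, with limma 3.58.1 in R 4.3.3 (lmFit and eBayes, data.table version 1.17.8), all 8 arrays in 1 fit with 4 residual degrees of freedom, and were tested on simulated data. Figures and motif searches used Python 3.11.15, pandas 2.3.3 and matplotlib 3.10.9. A gene is not reported here by name, but it stands in the counts. Members, gene lists and motifs were chosen with earlier results of these data known. Genes named were every called member, the 3 largest changes per complex with Torin1, the largest per complex in each comparison, a panel, and up to 3 called genes per list; per-array values were also given for further members. Alternatives were quantile and median scaling, normexp background correction (offset 50), other filters, all probes of a gene, 2-group fits, a trended prior, a replicate block, the authors' values, no edge spots and each array left out. Replicate numbers did not pair the arrays, with correlations of -0.131 to 0.083 between same-numbered deviations.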

Additional observations from a re-analysis of the deposited data

How the results depend on the processing

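Scaling was the choice that moved the values most. Quantile normalization gave, for Torin1 against control, 28 members lower and 6 higher, against 28.4% and 21.9% of all genes, with a median of -0.12. By complex, I to V, it gave medians of -0.12, -0.12, -0.066, -0.10 and -0.16, with 15 genes lower in I, 1 in II, 2 in IV and 7 in V. For Torin1 against tamarixetin it gave 4 higher and a median of -0.12, and Ndufa10 there turned to 0.0215 (limma adjusted p = 0.699). With the median of each array, which moved the median of all genes from -0.09 to -0.28, Torin1 against control had 0 higher and a median of -0.45 (by complex -0.47, -0.45, -0.42, -0.39 and -0.49), with 7 genes lower in III and 11 in IV. That scale gave 0 higher and a median of -0.33 against tamarixetin, and a median of -0.11 for tamarixetin against control.

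With no filter on dim probes, 21 members were lower and 0 higher with Torin1 against control, beside 8.5% and 7.36% of all genes. The 21 were 10 in I, 1 in II, 2 in III, 2 in IV and 6 in V. Against tamarixetin 13 were lower, beside 6.78% of all genes. Without edge spots, 42 members remained. Against control 27 of them were lower and 0 higher, beside 30% and 20% of all genes. Among the 27 were 13 in I, 1 in II and 1 in IV, and the medians were -0.16 in II and -0.37 in III. Against tamarixetin 28 were lower and 0 higher, beside 27.3% and 18.1% of all genes. Normexp moved the median of II to -0.23, and the trended prior gave 7 lower in IV. With the replicate block, 39 members were lower against control and 30 against tamarixetin, beside 26.7% and 22% of all genes, with 2 in III. Leaving out each array in turn gave 23 to 47 lower against control (11 to 23 in I, 1 to 2 in II, 2 to 4 in III, 2 to 6 in IV, 6 to 12 in V) and 17 to 35 against tamarixetin. Without a control or Torin1 array, fewer of all genes were called lower too. A group left with 1 array was assumed to vary like the others. The cause of these moves was not tested. Among single called genes, 1311 alternative values kept direction and call, 267 kept direction and lost the call, and 1 turned. Neither flavonol, nor their comparison, gave a called member in any alternative. With 2 arrays a group the number of arrays limits the precision.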
